A study of Mus musculus with 18 samples.

Results

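The collagen genes were taken as every protein-coding gene whose symbol is Col, a number, the letter a and a number. The rule found 44 of the 55487 genes in the count table. By the known structure of their chains they were placed in 11 fibrillar genes, 6 type IV genes of basement membranes, 6 type VI genes, 9 genes of fibril-associated collagens (FACITs), 2 multiplexins, 4 transmembrane collagens, 4 genes of types VII, VIII and X, and 2 others.

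Gene expression was measured by RNA-seq in 18 libraries of the mouse embryonic stem cell line ES-E14TG2a. Undifferentiated mESCs in Serum/LIF gave 3 IκBα-WT and 3 IκBα-KO libraries. IκBα-KO clones carried CRISPR-Cas9 cuts in the first exon of Nfkbia, the gene of the NF-κB inhibitor IκBα, and IκBα-WT clones had received scrambled guides. Embryoid bodies (EBs), aggregates that form after LIF is withdrawn, gave 6 libraries at 48 h and 6 at 96 h. Each library came from 1 single-cell clone of its genotype, so differences between clones are part of the spread between replicates. The labels give both genotypes at each EB time, but the EB columns of the count table carry a code (D4, E14, E2, E3, H7 or H9, each present at 48 h and 96 h) and no genotype. EB libraries were therefore compared by time only, and each EB group and its spread hold both genotypes.

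Library totals ranged from 28287582 to 40904247 counts. Nfkbia stood at 34.2, 35.1 and 25.3 counts scaled to library size (CPM) in the IκBα-WT mESCs and at 10.2, 9.44 and 10.1 CPM in the IκBα-KO mESCs. The summed level of 10 pluripotency markers was 1423 to 1814 RPKM (reads scaled to gene length and library size) in mESCs, and 291 to 753 RPKM in EBs at 96 h. The 8 markers of fibroblasts, which make collagen, summed to at most 5.84 RPKM in any library, most of it Thy1 and Pdgfrb. Of the others, Fap, Lum, Postn, Dcn and Twist2 were at most 0.292 RPKM. By edgeR (adjusted p below 0.05, log2 fold change above 1), Lum and Dcn were called higher at 48 h than in mESCs. Pdgfrb and Tcf21 were called higher at 96 h than at 48 h. In each case these were 2 of 7 markers tested, beside 4.62% and 7.1% of all genes. Their part in the collagen levels was not tested. A few libraries stood apart. The IκBα-KO clones 1 and 3 had raised extraembryonic endoderm markers, the IκBα-KO clone 2 had a raised chromosome 15 (median log2 difference from the IκBα-WT mean 0.53), and the 96 h library E14 held the highest level at that time for 24 of the 44 collagen genes. The median of chromosome 8 was raised in all 3 IκBα-KO clones (0.47, 0.28 and 0.43). That of chromosome 9 was lower in IκBα-KO clone 2 (-0.17).

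Collagens are secreted or membrane-bound proteins whose chains wind around each other into a rope-like helix, which needs hydroxylated prolines and the chaperone Hsp47. Fibrillar collagens assemble into the fibres of connective tissue, type IV collagen forms the sheet-like network of basement membranes, and the remaining types decorate fibres, form beaded filaments or anchor cells. The basement membrane is the first extracellular matrix of the early mouse embryo, laid down by extraembryonic endoderm and by the epiblast, whereas fibre-forming matrix appears as mesenchymal cells emerge.

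In each of the 18 libraries the collagen gene with the highest level was Col18a1, the multiplexin of basement membranes whose cleaved end is endostatin (chr10:77052178-77166548, minus strand, GRCm38). It made up 42.1 to 75.6% of the summed collagen level in mESCs, 67.7 to 86.4% in EBs at 48 h and 31 to 76.6% at 96 h. Averaged over all libraries its level was 82.4 RPKM, ahead of Col4a1 at 12.8, Col4a2 at 6.25, Col9a2 at 4.30, Col5a1 at 3.09 and Col2a1 at 2.22 RPKM. Only 7 of the 44 genes had a median above 1 RPKM in mESCs, with the same number in EBs at 48 h and at 96 h. The median lay under 0.1 RPKM in 21 genes in mESCs, 17 at 48 h and 15 at 96 h. Among genes called in no comparison, Col7a1, which anchors epithelia to the tissue below, had a median of 0.644 RPKM in mESCs, Col8a2 of 0.455 RPKM and Col13a1 of 0.379 RPKM, and Col8a1, Col9a1, Col12a1, Col15a1 and Col28a1 were at most 0.295 RPKM in any library. Of these 8 genes, Col7a1 passed the adjusted p once, at 96 h against 48 h and below the fold threshold (log2 fold change 0.90 ± 0.24 (SE), adjusted p = 0.0109). The fibre-forming chains of connective tissue were low, with Col1a1 at a median of 0.409 RPKM, Col1a2 at 0.0437 RPKM and Col3a1 at 0.0084 RPKM in mESCs.

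**Figure D1:**
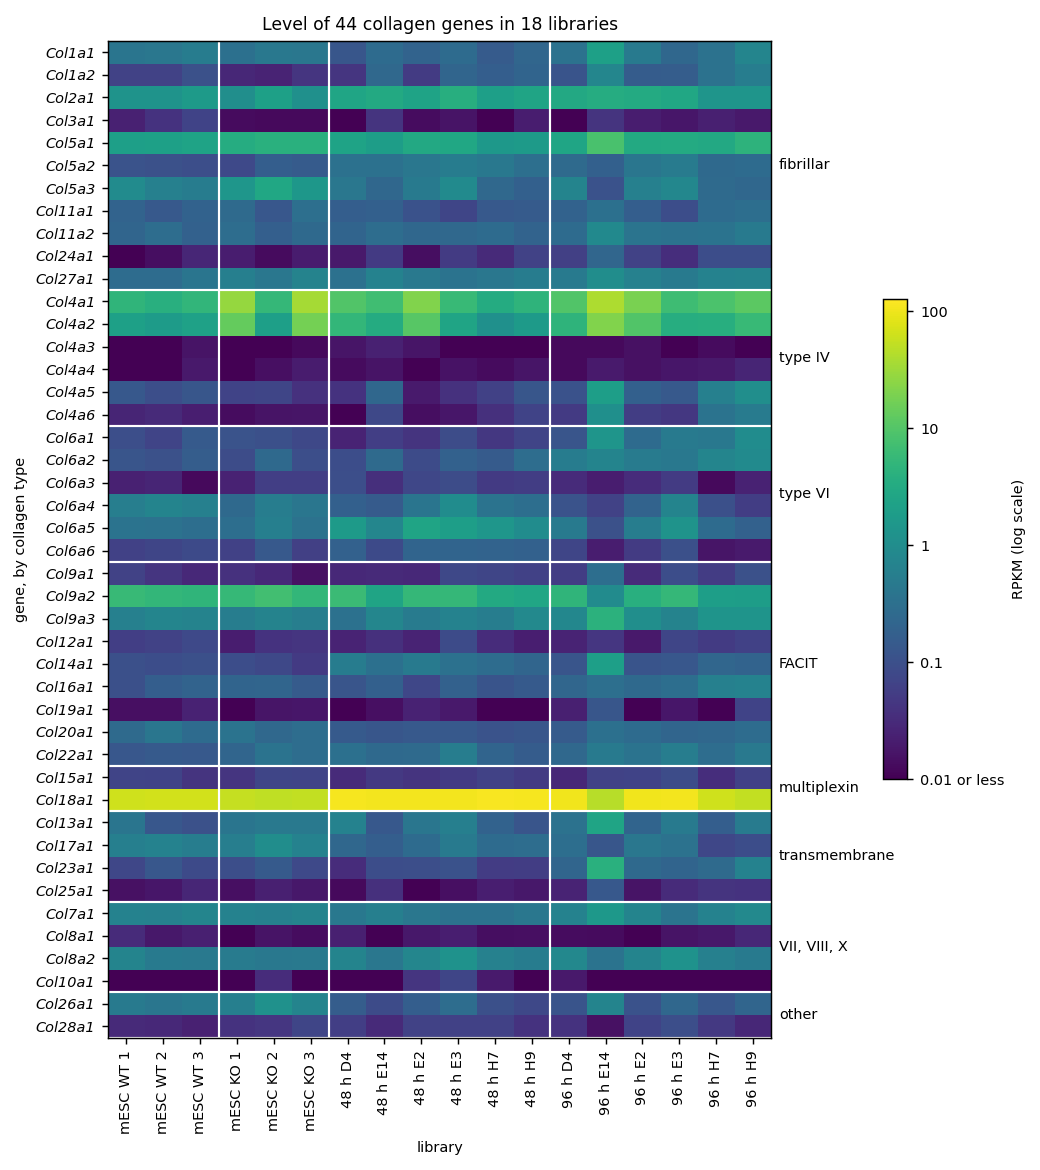
Level of the 44 collagen genes (rows, by collagen type) in the 18 libraries (columns), as RPKM on a log colour scale from 0.01 to 100. Col18a1 is the brightest row throughout, Col4a1 and Col4a2 brighten in the IκBα-KO clones 1 and 3 and in the 96 h library E14, and Col4a3 and Col4a4 stay near 0.

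In mESCs, loss of IκBα was tested on 40 of the 44 collagen genes, since Col19a1, Col4a3, Col4a4 and Col10a1 had under 10 counts over the 6 libraries. A call required an adjusted p below 0.05 together with a log2 fold change larger than 1 in size. Col5a3 and Col22a1 were called higher and Col3a1 lower in IκBα-KO clones, beside 1.06% of all genes tested called higher and 0.641% called lower. The median log2 fold change was 0.12 over the collagen genes and 0.01 over all genes. The 3 calls were sensitive to single clones. None held in all 6 fits that left out 1 library, and without IκBα-WT clone 2 edgeR called 0 genes in the whole table, with 14 collagen genes at an unadjusted p under 0.05. The collagen calls were 1 higher and 1 lower without IκBα-WT clone 1, 0 without IκBα-WT clone 3 or IκBα-KO clone 3 (12 genes at an unadjusted p under 0.05 in each), 1 higher without IκBα-KO clone 1, and 4 higher and 4 lower without IκBα-KO clone 2.

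Markers of the formative epiblast, the state that follows naive pluripotency, moved with the genotype. The 5 markers summed to 125, 152 and 199 RPKM in the IκBα-WT clones and to 74.9, 89.6 and 78.8 RPKM in the IκBα-KO clones, without overlap. Each of the 5 was lower in all 3 IκBα-KO clones than in any IκBα-WT clone, and 3 were called lower, Fgf5 (log2 fold change -4.44, adjusted p = 0.00832), Lef1 (log2 fold change -3.13, adjusted p = 0.00626) and Pou3f1 (log2 fold change -2.07, adjusted p = 0.0233). Their part in the collagen differences was not tested.

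Among the fibrillar genes, 1 of 11 was called higher and 1 lower, beside 1.06% and 0.641% of all genes. Col5a3, a chain of the type V collagen that starts and limits fibre growth, measured 0.941, 0.598 and 0.509 RPKM in the IκBα-WT clones and 1.43, 2.73 and 1.46 RPKM in the IκBα-KO clones. All IκBα-KO clones lay above all IκBα-WT clones, with clone 2 the highest (log2 fold change 1.45 ± 0.31 (SE), adjusted p = 0.0395). Its partner chain Col5a1 measured 2.03, 2.11 and 2.35 RPKM in the IκBα-WT clones and 3.42, 3.93 and 4.01 RPKM in the IκBα-KO clones. These groups did not overlap either, and the difference passed the adjusted p but not the fold threshold (log2 fold change 0.81 ± 0.10 (SE), adjusted p = 0.00787). The remaining type V chain, Col5a2, was far lower at 0.102, 0.0924 and 0.086 RPKM in the IκBα-WT clones and 0.0704, 0.156 and 0.139 RPKM in the IκBα-KO clones, and its groups overlapped.

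Col3a1, the type III chain found with type I in soft tissues, was barely detected, at 4, 9 and 17 counts in the IκBα-WT clones and 1, 1 and 1 count per clone in the IκBα-KO clones (log2 fold change -3.45 ± 0.73 (SE), adjusted p = 0.0376). Summed over clones and scaled by library size, the IκBα-KO level was 0.0809 of the IκBα-WT level, with an exact 95% interval of 0.0158 to 0.26 that covers counting error only. Col1a2, a chain of type I collagen, measured 0.0545, 0.0555 and 0.0956 RPKM in the IκBα-WT clones and 0.0189, 0.0158 and 0.0329 RPKM in the IκBα-KO clones, also without overlap, but missed the threshold (log2 fold change -1.60 ± 0.40 (SE), adjusted p = 0.0596). Col1a1, the other type I chain, measured 0.387, 0.41 and 0.523 RPKM in the IκBα-WT clones and 0.322, 0.433 and 0.407 RPKM in the IκBα-KO clones, and the groups overlapped (log2 fold change -0.18). Col2a1, the cartilage collagen, had a log2 fold change of 0.00, Col27a1 of 0.85, adjusted p = 0.0692, Col11a1 of 0.41, Col11a2 of 0.03 and Col24a1 of 0.18, with none called.

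Among the type IV genes, clones of 1 genotype differed widely. Col4a1 and Col4a2 encode the chains of the ubiquitous type IV network and lie head to head on chromosome 8 (chr8:11198423-11312826, minus strand, and chr8:11312805-11449287, plus strand, GRCm38), with first exons that overlap by 22 bases. Col4a1 measured 4.87, 3.8 and 4.97 RPKM in the IκBα-WT clones and 28.4, 5.45 and 35.8 RPKM in the IκBα-KO clones. Col4a2 measured 2.12, 1.78 and 2.23 RPKM in the IκBα-WT clones and 13.8, 2.04 and 17.3 RPKM in the IκBα-KO clones. Clones 1 and 3 stood far above every IκBα-WT clone in both genes, whereas IκBα-KO clone 2 was close to them. Neither gene was called (Col4a1 log2 fold change 2.36 ± 0.64 (SE), adjusted p = 0.0974, and Col4a2 log2 fold change 2.44 ± 0.72 (SE), adjusted p = 0.118). Without IκBα-KO clone 2, both were called, Col4a1 at a log2 fold change of 2.83 ± 0.16 (SE) with adjusted p = 0.000258, and Col4a2 at 2.93 ± 0.12 (SE) with adjusted p = 1.9e-06 by edgeR. DESeq2 called both with all 6 libraries (adjusted p = 0.0156 and 0.026). The edgeR fit without clone 2 left out the clone in which the genes were low, so it describes clones 1 and 3 and not the genotype.

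The same clones differed in markers of extraembryonic endoderm, the embryonic tissue that secretes basement membrane. The 12 markers summed to 3.61, 4.07 and 4.26 RPKM in the IκBα-WT clones and to 19.1, 5.05 and 30.3 RPKM in the IκBα-KO clones. In clones 1 and 3, 10 of the 12 exceeded every IκBα-WT clone, against 3 in clone 2. Hnf4a and Sox17 exceeded every IκBα-WT clone in all 3 IκBα-KO clones. Of 10 markers tested, Hnf4a alone was called, and it was higher, beside 1.06% of all genes. Gata4, a transcription factor of primitive endoderm, was 2.65, 0.459 and 3.53 RPKM in the IκBα-KO clones against at most 0.60 RPKM in IκBα-WT. Cubn, an uptake receptor of visceral endoderm, was 3.86, 0.419 and 7.19 RPKM against at most 0.442 RPKM. The visceral endoderm products Ttr and Afp were near 0 in all mESC libraries, at no more than 0.115 and 0.0146 RPKM. Lama1, the laminin chain of early basement membranes, moved with them at 20.6, 3.08 and 25.5 RPKM in the IκBα-KO clones against 6.29, 4.97 and 5.24 RPKM in IκBα-WT. The part of these cells in the Col4a1 and Col4a2 levels was not tested. In such bulk samples fewer cells of a type and less RNA per cell cannot be told apart. Chromosomes were cut into fixed bins of 10 Mb, so a gene need not lie at the centre of its bin. The genes of the bin that holds Col4a1 had median log2 differences from IκBα-WT of 0.03, 0.28 and 0.01 in clones 1 to 3 (chromosome 8 as a whole 0.47, 0.28 and 0.43). Col4a1 itself differed by 2.65, 0.27 and 2.99. The part of gene dosage in these levels was not tested.

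**Figure D2:**
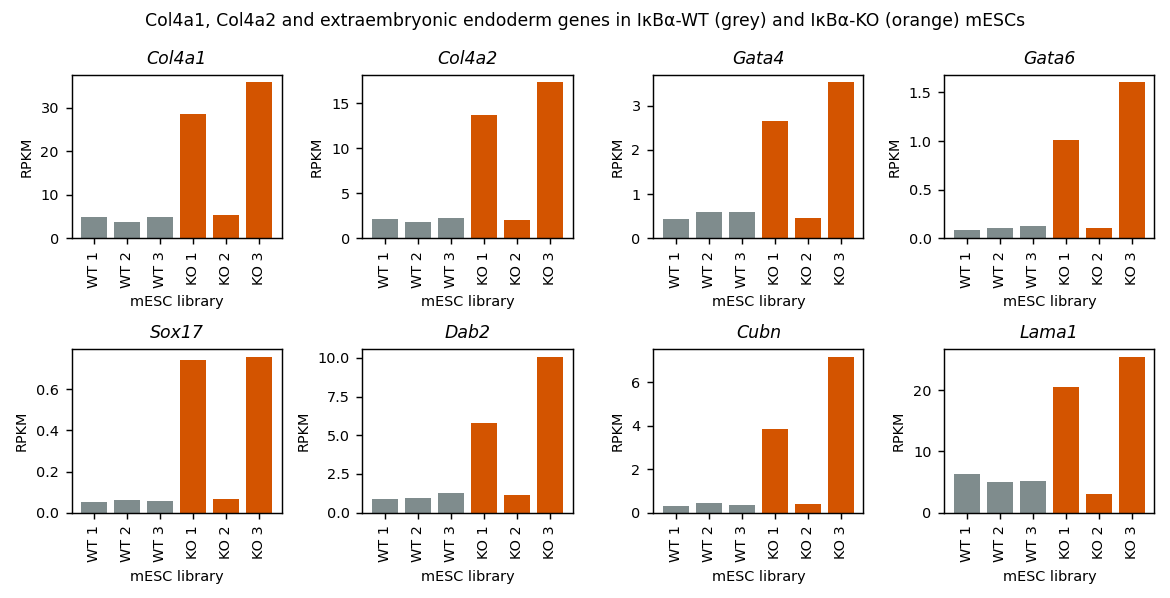
RPKM of Col4a1, Col4a2, 5 extraembryonic endoderm genes and Lama1 in the 3 IκBα-WT (grey) and 3 IκBα-KO (orange) mESC libraries, 1 bar per library. In all 8 panels the IκBα-KO clones 1 and 3 stand above the other 4 libraries. Clone 2 lies above every IκBα-WT clone in Col4a1 and Sox17 only.

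The other type IV chains were scarce in mESCs. Col4a5 and Col4a6, which lie head to head on the X chromosome, had log2 fold changes of -1.14, adjusted p = 0.114, and -1.50, adjusted p = 0.193, with 1, 2 and 2 counts of Col4a6 in the IκBα-KO clones. The kidney and lung chains Col4a3 and Col4a4 had at most 2 and 4 counts in any mESC library.

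Of the FACITs, 1 of 8 tested was called, and it was higher, beside 1.06% of all genes. Col22a1, a collagen of tissue junctions, measured 0.122, 0.136 and 0.129 RPKM in the IκBα-WT clones and 0.204, 0.357 and 0.278 RPKM in the IκBα-KO clones, without overlap (log2 fold change 1.12 ± 0.25 (SE), adjusted p = 0.0461). Col22a1 lies on chromosome 15, and the genes of the 10 Mb bin that holds it differed from IκBα-WT by a median log2 of -0.01, 0.59 and -0.09 in clones 1 to 3. With each chromosome's median shift taken out, Col22a1 had a log2 fold change of 0.95 with adjusted p = 0.0546, and was not called. Col5a3 also lost its call there (log2 fold change 1.53, adjusted p = 0.0622). The genes of its 10 Mb bin on chromosome 9 differed by a median log2 of -0.004, -0.37 and -0.07 in clones 1 to 3. None of the 6 type VI, 2 multiplexin, 4 transmembrane, 3 tested type VII and VIII or 2 other genes was called. Col18a1, the most abundant collagen, measured 64.3, 66.2 and 66.6 RPKM in the IκBα-WT clones and 55.5, 51.7 and 52.4 RPKM in the IκBα-KO clones. The IκBα-KO clones were all lower, by less than the fold threshold (log2 fold change -0.31 ± 0.06 (SE), adjusted p = 0.0308).

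Genes that make, bind and break down collagen were also followed. Over all genes tested in mESCs, 1.06% were called higher and 0.641% lower. Of 31 tested genes of collagen biosynthesis, only Serpinh1 was called, and it was higher. It encodes Hsp47, the collagen chaperone, and measured 9.38, 8.01 and 11.4 RPKM in the IκBα-WT clones and 27.4, 20.1 and 31.5 RPKM in the IκBα-KO clones (log2 fold change 1.46 ± 0.19 (SE), adjusted p = 0.00832). Of 9 collagen receptors, Ddr2, a receptor kinase for fibrillar collagen, was called higher (log2 fold change 1.56 ± 0.25 (SE), adjusted p = 0.0151). Of 18 basement membrane partners, Sparc, which binds collagen, was called higher (log2 fold change 1.07 ± 0.17 (SE), adjusted p = 0.0169), and Lama1 was not (log2 fold change 1.58, adjusted p = 0.251). Of 7 tested genes of collagen breakdown, the gelatinase Mmp2 (log2 fold change 1.05, adjusted p = 0.00489) and its inhibitor Timp2 (log2 fold change 1.22, adjusted p = 0.0132) were called higher. These 5 genes were higher in all 3 IκBα-KO clones than in any IκBα-WT clone. Except where DESeq2 is named, the adjusted p-values in the text come from edgeR, with adjustment over all genes tested.

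From mESCs to EBs at 48 h, the collagen genes had a median log2 fold change of -0.05 against 0.004 over all genes, and single genes went both ways. All 44 passed the count filter in this fit. The test called 5 higher (Col5a2, Col1a2, Col6a5, Col6a6 and Col14a1) and 4 lower (Col5a3, Col17a1, Col20a1 and Col26a1), beside 4.62% of all genes called higher and 4.95% lower. Of these 9 calls, 6 held in each of the 18 fits that left out 1 library. Without EB library E3, H7 or H9 at 48 h, or without IκBα-WT clone 1 or 2 or IκBα-KO clone 1 or 3, 3 genes were called higher. All 5 epiblast markers were called higher at 48 h, with sums of 171 to 520.2 RPKM against 74.9 to 199 RPKM in mESCs, and their part in the collagen differences was not tested.

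The largest difference in amount was that of Col18a1. It measured 51.7 to 66.6 RPKM (median 59.9) in mESCs and 106 to 115 RPKM (median 108) at 48 h, with no overlap (log2 fold change 0.87 ± 0.17 (SE), adjusted p = 0.00097), just under the fold threshold. Among fibrillar genes, Col5a2 measured 0.0704 to 0.156 RPKM (median 0.0974) in mESCs and 0.301 to 0.515 RPKM (median 0.369) at 48 h (log2 fold change 1.83 ± 0.26 (SE), adjusted p = 4.2e-05). Col5a3 went the other way, at 0.509 to 2.73 RPKM (median 1.19) in mESCs and 0.168 to 0.902 RPKM (median 0.322) at 48 h, with overlapping groups (log2 fold change -1.68 ± 0.53 (SE), adjusted p = 0.0229), while their partner Col5a1 had a log2 fold change of -0.43. Against the IκBα-WT mESCs alone the log2 fold change of Col5a3 was -0.79 with adjusted p = 0.40, and it was not called. Col2a1 passed the adjusted p below the fold threshold (log2 fold change 0.92 ± 0.24 (SE), adjusted p = 0.00719). Col1a2 ranged from 0.0328 to 0.237 RPKM (median 0.178) at 48 h, and its values split widely by code, at 0.0328 RPKM in D4, 0.237 in E14, 0.0407 in E2, 0.209 in E3, 0.156 in H7 and 0.20 in H9 (log2 fold change 1.69 ± 0.59 (SE), adjusted p = 0.0407). The call of Col1a2 was lost in 9 of 18 fits that left out 1 library (IκBα-WT clone 1, IκBα-WT clone 2, IκBα-KO clone 1, IκBα-KO clone 2, IκBα-KO clone 3, 48 h E14, 48 h E3, 48 h H7 or 48 h H9), and that of Col5a3 in 4 of 18 (IκBα-KO clone 2, 48 h E14, 48 h H7 or 48 h H9).

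None of the 6 type IV genes was called at 48 h. Col4a1 measured 9.77 RPKM in D4, 6.98 in E14, 21.3 in E2, 5.82 in E3, 3.26 in H7 and 4.57 in H9 by code, a wide spread. Its log2 fold change against the mESCs of both genotypes together was -0.69. The mean raw count of Col4a1 was 1020 in IκBα-WT mESCs, 6230 in IκBα-KO mESCs and 1909 at 48 h. The negative sign thus rests on the IκBα-KO mESCs. Library E2, the highest, also had the highest sum of extraembryonic endoderm markers at 48 h (25 RPKM, against 2.78 to 9.48 in the others), with Cubn at 9.01 RPKM. Their part in the Col4a1 level was not tested.

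Type VI collagen forms beaded filaments around cells, and its Col6a5 and Col6a6 chains, which can stand in for Col6a3 in the assembled protein, were called higher. Col6a5 measured 0.288 to 0.584 RPKM (median 0.346) in mESCs and 0.763 to 2.43 RPKM (median 1.57) at 48 h, without overlap (log2 fold change 2.08 ± 0.47 (SE), adjusted p = 0.00253). Col6a6 was lower in level, at 0.0746 to 0.198 RPKM (median 0.185) (log2 fold change 1.28 ± 0.47 (SE), adjusted p = 0.0488), and its call was lost in 11 of 18 fits with 1 library left out (IκBα-WT clone 1, IκBα-WT clone 2, IκBα-WT clone 3, IκBα-KO clone 1, IκBα-KO clone 3, 48 h D4, 48 h E2, 48 h E3, 48 h H7, 48 h H9 or 96 h E2). Col6a1 and Col6a2, the obligatory partners, were not called (log2 fold changes -0.99 and 0.39).

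Col14a1, a FACIT of fibril surfaces, measured 0.0389 to 0.0918 RPKM (median 0.084) in mESCs and 0.211 to 0.514 RPKM (median 0.323) at 48 h, without overlap (log2 fold change 2.20 ± 0.67 (SE), adjusted p = 0.0186). Col20a1, another FACIT, measured 0.229 to 0.402 RPKM (median 0.269) in mESCs and 0.103 to 0.132 RPKM (median 0.122) at 48 h (log2 fold change -1.29 ± 0.21 (SE), adjusted p = 0.000154). Col17a1, the transmembrane collagen of hemidesmosomes, measured 0.538 to 1.03 RPKM (median 0.615) in mESCs and 0.159 to 0.464 RPKM (median 0.262) at 48 h (log2 fold change -1.28 ± 0.39 (SE), adjusted p = 0.0191). Col26a1, known from gonads, measured 0.393 to 1.19 RPKM (median 0.535) in mESCs and 0.0679 to 0.279 RPKM (median 0.121) at 48 h (log2 fold change -2.22 ± 0.49 (SE), adjusted p = 0.00201). Every EB library lay below every mESC library in the last 3 genes.

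In the collagen biosynthesis list, 2 of 32 genes were called higher at 48 h (P4ha3 and Tll1) and 3 lower. The shares over all genes tested were 4.62% higher and 4.95% lower. P4ha1, the main prolyl 4-hydroxylase subunit that stabilises the helix, measured 8.06 to 13.1 RPKM (median 8.91) in mESCs and 1.6 to 3.66 RPKM (median 2.33) at 48 h (log2 fold change -2.04 ± 0.20 (SE), adjusted p = 6.5e-07). Pcolce, an enhancer of procollagen processing, had a log2 fold change of -2.26, adjusted p = 1.2e-06, and Loxl2, a crosslinking enzyme, of -2.16, adjusted p = 0.000184. Among the basement membrane partners, the laminin chains Lama1 and Lamb3 and the linker Nid1 were called lower (log2 fold changes -2.57, -1.50 and -1.48). Of the receptors, Mrc2, which takes up collagen for degradation, was called higher (log2 fold change 2.07 ± 0.15 (SE), adjusted p = 3.7e-08), as was the gelatinase gene Mmp9 among 7 genes of breakdown (log2 fold change 1.17, adjusted p = 0.0101).

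Between 48 h and 96 h, 10 of 44 collagen genes were called higher and 3 lower, beside 7.1% of all genes tested called higher and 4.76% lower. The median log2 fold change was 0.80 over the collagen genes and -0.03 over all genes. The genes that rose came from 5 of the 8 structural groups: Col1a1 and Col24a1 (fibrillar), Col4a5 and Col4a6 (type IV), Col6a1 and Col6a2 (type VI), Col9a3 and Col16a1 (FACIT), and Col23a1 and Col25a1 (transmembrane). Those that fell were all type VI genes, Col6a3, Col6a5 and Col6a6. Of these 13 calls, 9 held in each of the 18 fits that left out 1 library. Because the EB codes tie libraries together, the 12 EB libraries were also fitted without the mESCs, which called 9 collagen genes higher and 3 lower, and 1551 of all genes higher and 719 lower. With the code as a block in that fit of EB libraries alone, 11 collagen genes were called higher and 4 lower, and 1879 of all genes higher and 1656 lower. Col1a2 (log2 fold change 1.22 ± 0.31 (SE), adjusted p = 0.0136) and Col6a4 (log2 fold change -1.26 ± 0.29 (SE), adjusted p = 0.00886) were called in the blocked fit, but neither with all 18 libraries nor with the EB libraries alone without the block.

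The 96 h library E14 held many of the highest values. Without it, 7 collagen genes were called higher and 3 lower, and of all genes 1353 were called higher and 755 lower, against 1797 and 1206 with it. Without the 96 h library E3, H7 or H9, 1994, 833 and 790 of all genes were called lower. The calls of Col9a3 (log2 fold change 0.81 ± 0.23 (SE), adjusted p = 0.0188), Col24a1 (log2 fold change 1.07 ± 0.52 (SE), adjusted p = 0.149), Col25a1 (log2 fold change 1.23 ± 0.59 (SE), adjusted p = 0.148) and Col6a3 (log2 fold change -1.39 ± 0.56 (SE), adjusted p = 0.0859) were lost and that of Col14a1, lower at 96 h in the other 5 libraries, was gained (log2 fold change -1.19 ± 0.28 (SE), adjusted p = 0.00628). Col24a1 lost its call in 9 of 18 fits that left out 1 library (IκBα-WT clone 2, IκBα-KO clone 1, IκBα-KO clone 3, 48 h D4, 48 h E2, 48 h H7, 96 h E14, 96 h H7 or 96 h H9), Col25a1 in 5 of 18 (48 h D4, 48 h E2, 48 h E3, 48 h H9 or 96 h E14) and Col6a3 in 7 of 18 (48 h D4, 48 h E2, 48 h E3, 96 h D4, 96 h E14, 96 h H7 or 96 h H9), and Col9a3 without 96 h E14 alone. The 12 extraembryonic endoderm markers summed to 54.3 RPKM in the 96 h library E14, 19.2 in E2 and 4.42 to 12.8 in the other 96 h libraries. The 96 h library E14 had high primitive streak and mesoderm markers, which also were high in H7 and H9. T, the brachyury gene of the primitive streak, measured 0.624 RPKM in D4, 153 in E14, 0.419 in E2, 0.306 in E3, 116 in H7 and 220.5 in H9. Mesp1, a gene of nascent mesoderm, measured 0 RPKM in D4, 19.3 in E14, 0.0217 in E2, 0.0412 in E3, 0.821 in H7 and 6.98 in H9. The part of the endoderm, streak and mesoderm markers in the collagen levels was not tested.

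The X-linked type IV pair rose together. Col4a5 (chrX:141475385-141689234, plus strand) and Col4a6 (chrX:141165403-141474076, minus strand, GRCm38) encode chains of specialised basement membranes, such as those of kidney and smooth muscle, and their start sites lie 1308 bases apart. The bases just before each start site are given here from RefSeq (GRCm38.p6), 5′ to 3′ on the strand of the gene, because both genes of the pair were called higher and lie on the same short stretch of the X chromosome. The Col4a5 line covers chrX:141475169-141475384 on the plus strand, ends before the annotated first exon and has a CCAAT motif in capitals. The Col4a6 line covers chrX:141474077-141474326 on the minus strand and has a CCGCCC motif in capitals, the reverse strand of GGGCGG.
Col4a5: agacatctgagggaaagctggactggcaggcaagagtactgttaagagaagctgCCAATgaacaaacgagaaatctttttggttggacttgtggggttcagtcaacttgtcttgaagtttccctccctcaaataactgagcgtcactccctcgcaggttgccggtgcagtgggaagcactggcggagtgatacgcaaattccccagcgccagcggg
Col4a6: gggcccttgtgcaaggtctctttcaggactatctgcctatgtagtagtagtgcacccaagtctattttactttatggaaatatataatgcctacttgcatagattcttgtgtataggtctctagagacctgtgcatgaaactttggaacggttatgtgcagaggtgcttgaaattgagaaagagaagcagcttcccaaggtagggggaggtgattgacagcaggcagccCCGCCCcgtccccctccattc
TATAAA (the TATA box), CCAAT (the CCAAT box) and GGGCGG (the GC box) were searched on both strands in the 250 bases before each RefSeq start, and these motifs do not overlap one another. They were held by 12.4%, 33.8% and 32.7% of all 32851 promoter windows of that length. The Col4a5 window held a CCAAT box and a GC box, the latter in its last bases, which lie in the annotated first exon and are not printed, and the Col4a6 window held GGGCGG alone. Promoter windows were found for 35 of the 44 collagen genes, some with more than 1 start, and 22 of these 38 windows (57.9%) held GGGCGG. The TATA box was held by 5 of the 38 (13.2%) and the CCAAT box by 13 (34.2%), close to the shares of all windows.

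Col4a5 ranged from 0.010 to 0.224 RPKM (median 0.0408) at 48 h, and at 96 h measured 0.099 RPKM in D4, 2.01 in E14, 0.173 in E2, 0.129 in E3, 0.609 in H7 and 1.07 in H9. Col4a6 ranged from 0 to 0.0686 RPKM (median 0.0177) at 48 h, and at 96 h measured 0.0399 RPKM in D4, 1.07 in E14, 0.0452 in E2, 0.0362 in E3, 0.358 in H7 and 0.492 in H9. Both were higher at 96 h than at 48 h in 6 of 6 codes, but E14, H7 and H9 reached levels well above the other 3, which overlapped with the 48 h libraries. Col4a5 had log2 fold change 3.15 ± 0.77 (SE), adjusted p = 0.00625, and Col4a6 had log2 fold change 3.63 ± 0.89 (SE), adjusted p = 0.00632. Without E14 at 96 h the log2 fold changes were 2.46 ± 0.70 (SE), adjusted p = 0.0189 for Col4a5 and 2.84 ± 0.81 (SE), adjusted p = 0.019 for Col4a6. Col4a1 and Col4a2 remained the abundant chains at 96 h, at 9.74 RPKM in D4, 39.7 in E14, 18.8 in E2, 6.67 in E3, 8.75 in H7 and 11.5 in H9 for Col4a1, and were not called (log2 fold changes 0.88 and 1.00). The ratio of Col4a1 to Col4a2 in RPKM stayed between 1.86 and 2.84 in all 18 libraries. Col4a3 and Col4a4 had at most 4 and 6 counts in any EB library.

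Type VI genes moved in opposite directions. Col6a1 measured 0.0155 to 0.0795 RPKM (median 0.0413) at 48 h and 0.112 to 1.36 RPKM (median 0.445) at 96 h (log2 fold change 3.73 ± 0.52 (SE), adjusted p = 0.000114). Col6a2, its neighbour on chromosome 10 and partner in the protein, measured 0.0769 to 0.284 RPKM (median 0.159) at 48 h and 0.425 to 0.914 RPKM (median 0.605) at 96 h (log2 fold change 1.89 ± 0.35 (SE), adjusted p = 0.000856). In both genes every 96 h library lay above every 48 h library, and both calls held in all 18 fits with 1 library left out. The chains that can complete the protein fell. Col6a5 measured 0.763 to 2.43 RPKM (median 1.57) at 48 h and 0.0947 to 1.25 RPKM (median 0.365) at 96 h (log2 fold change -1.75 ± 0.46 (SE), adjusted p = 0.00976), and Col6a6 measured 0.0746 to 0.198 RPKM (median 0.185) at 48 h and 0.00692 to 0.0916 RPKM (median 0.0269) at 96 h (log2 fold change -2.15 ± 0.49 (SE), adjusted p = 0.00389). Both were lower at 96 h in 6 of 6 codes. Col6a3, the usual partner of Col6a1 and Col6a2, was close to absent at 1 to 19 counts at 96 h against 9 to 31 at 48 h (log2 fold change -1.55 ± 0.53 (SE), adjusted p = 0.0378).

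**Figure D3:**
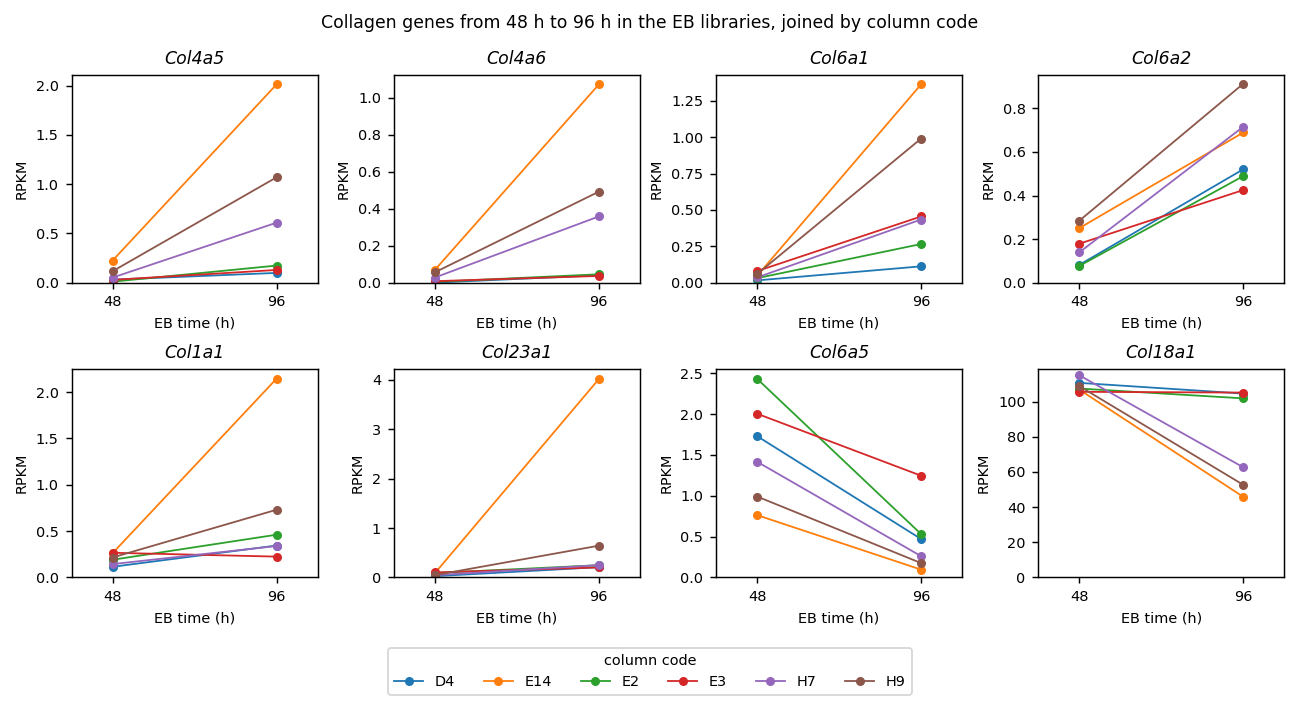
RPKM of 8 collagen genes in EBs at 48 h and 96 h, with the 2 libraries of each column code joined by a line. Col4a5, Col4a6, Col6a1 and Col6a2 are higher and Col6a5 is lower at 96 h in all 6 codes, Col1a1 and Col23a1 are steepest in E14, and Col18a1 ends at 45.8, 62.6 and 52.6 RPKM in E14, H7 and H9 and at 105, 102 and 105 RPKM in D4, E2 and E3.

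Of the 11 fibrillar genes, 2 were called higher at 96 h and 0 lower, beside 7.1% and 4.76% of all genes. At any fold change, 4 passed the adjusted p. Col1a1 ranged from 0.114 to 0.265 RPKM (median 0.202) at 48 h and at 96 h measured 0.344 RPKM in D4, 2.14 in E14, 0.46 in E2, 0.224 in E3, 0.338 in H7 and 0.73 in H9 (log2 fold change 1.84 ± 0.44 (SE), adjusted p = 0.0054). Without E14 its log2 fold change was 1.11 ± 0.28 (SE), adjusted p = 0.00901. Col1a2 measured 0.107 RPKM in D4, 0.74 in E14, 0.147 in E2, 0.15 in E3, 0.342 in H7 and 0.535 in H9 at 96 h and was called in the blocked fit of the EB libraries alone. Col5a1 measured 1.54 to 2.95 RPKM (median 2.15) at 48 h and 2.58 to 8.4 RPKM (median 3.1) at 96 h and passed the adjusted p below the fold threshold (log2 fold change 0.89 ± 0.28 (SE), adjusted p = 0.0241). The call of Col24a1 rested on very low levels, 7 to 62 counts at 96 h against 1 to 11 at 48 h (log2 fold change 1.58 ± 0.57 (SE), adjusted p = 0.0454). Col3a1 stayed at 0 to 12 counts at 96 h. Col2a1, at 1.38 to 3.51 RPKM (median 2.83), had a log2 fold change of -0.10, Col5a2 of -0.35 and Col5a3 of 0.15, while Col11a1, Col11a2 and Col27a1 had 0.78, 0.93 and 0.54. Of the last 3, Col11a2 passed the adjusted p below the fold threshold (adjusted p = 0.012).

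Among the transmembrane collagens, Col23a1 measured 0.0237 to 0.0994 RPKM (median 0.0643) at 48 h and 0.201 to 4.02 RPKM (median 0.248) at 96 h, with E14 at the top and every 96 h library above every 48 h library (log2 fold change 3.84 ± 0.74 (SE), adjusted p = 0.00132). Without E14 it was still called (log2 fold change 2.28 ± 0.38 (SE), adjusted p = 0.000618). Col25a1, known from developing neurons and muscle, had 0 to 10 counts at 48 h and 3 to 61 at 96 h (log2 fold change 2.05 ± 0.69 (SE), adjusted p = 0.0334). Of the FACITs, Col16a1 measured 0.0649 to 0.178 RPKM (median 0.124) at 48 h and 0.218 to 0.652 RPKM (median 0.299) at 96 h without overlap (log2 fold change 1.58 ± 0.32 (SE), adjusted p = 0.00178). Col9a3, a chain of the cartilage collagen type IX, measured 0.327 to 0.855 RPKM (median 0.585) at 48 h and 0.674 to 4.29 RPKM (median 1.19) at 96 h (log2 fold change 1.39 ± 0.37 (SE), adjusted p = 0.0101). Its partner Col9a2, the most abundant FACIT, was not called at 0.923 to 5.27 RPKM (median 2.9) (log2 fold change -0.41). Col9a3 shares 234 exon bases with Tcfl5, and the strand setting of the counting is not given in the sources used here.

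Col18a1 was lower at 96 h than at 48 h in 6 of 6 codes, and every 96 h library lay below every 48 h library, by little in 3 of them. It measured 111 RPKM in D4, 107 in E14, 107 in E2, 106 in E3, 115 in H7 and 109 in H9 at 48 h and 105 RPKM in D4, 45.8 in E14, 102 in E2, 105 in E3, 62.6 in H7 and 52.6 in H9 at 96 h. The difference missed the threshold (log2 fold change -0.47 ± 0.17 (SE), adjusted p = 0.0516).

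Collagen-modifying genes were called higher at 96 h in 9 of 32 cases and lower in 0, beside 7.1% and 4.76% of all genes. P4ha1 measured 1.6 to 3.66 RPKM (median 2.33) at 48 h and 12.9 to 21 RPKM (median 14.8) at 96 h (log2 fold change 2.70 ± 0.20 (SE), adjusted p = 3.6e-07). The collagen chaperone gene Serpinh1 measured 6.02 to 18.4 RPKM (median 13.4) at 48 h and 27.2 to 101 RPKM (median 48.5) at 96 h (log2 fold change 2.03 ± 0.38 (SE), adjusted p = 0.00111). Some crosslinking enzymes rose with them, Loxl2 at 0.205 to 0.729 RPKM (median 0.391) at 48 h and 2.02 to 10.6 RPKM (median 6.3) at 96 h (log2 fold change 3.93 ± 0.38 (SE), adjusted p = 6.2e-06) and Loxl4 with a log2 fold change of 4.77, adjusted p = 0.00195. Only 3 of the 6 libraries at 96 h lay above every 48 h library in Loxl4. Other genes of the same enzyme family were not called. The other 5 called genes had smaller changes. P4ha1, Serpinh1 and Loxl2 were higher at 96 h in 6 of 6 codes.

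Of 18 basement membrane partners, 3 were called higher at 96 h and 1 lower, beside 7.1% and 4.76% of all genes. Pxdn, the peroxidase that crosslinks type IV collagen, measured 2.45 to 8.46 RPKM (median 5.46) at 48 h and 5.95 to 27.2 RPKM (median 14.1) at 96 h (log2 fold change 1.48 ± 0.33 (SE), adjusted p = 0.00341), Lama4 and Lamb3 had log2 fold changes of 2.05 and 1.52, and Lama3 was lower at -1.63, adjusted p = 0.00852. None of the 10 collagen receptors was called by edgeR, with 3 at an adjusted p under 0.05 below the fold threshold and 5 at an unadjusted p under 0.05. Mmp2 and Timp2 were called higher again (log2 fold change 1.38 ± 0.24 (SE), adjusted p = 0.000653, and log2 fold change 1.83 ± 0.42 (SE), adjusted p = 0.0041).

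**Figure D4:**
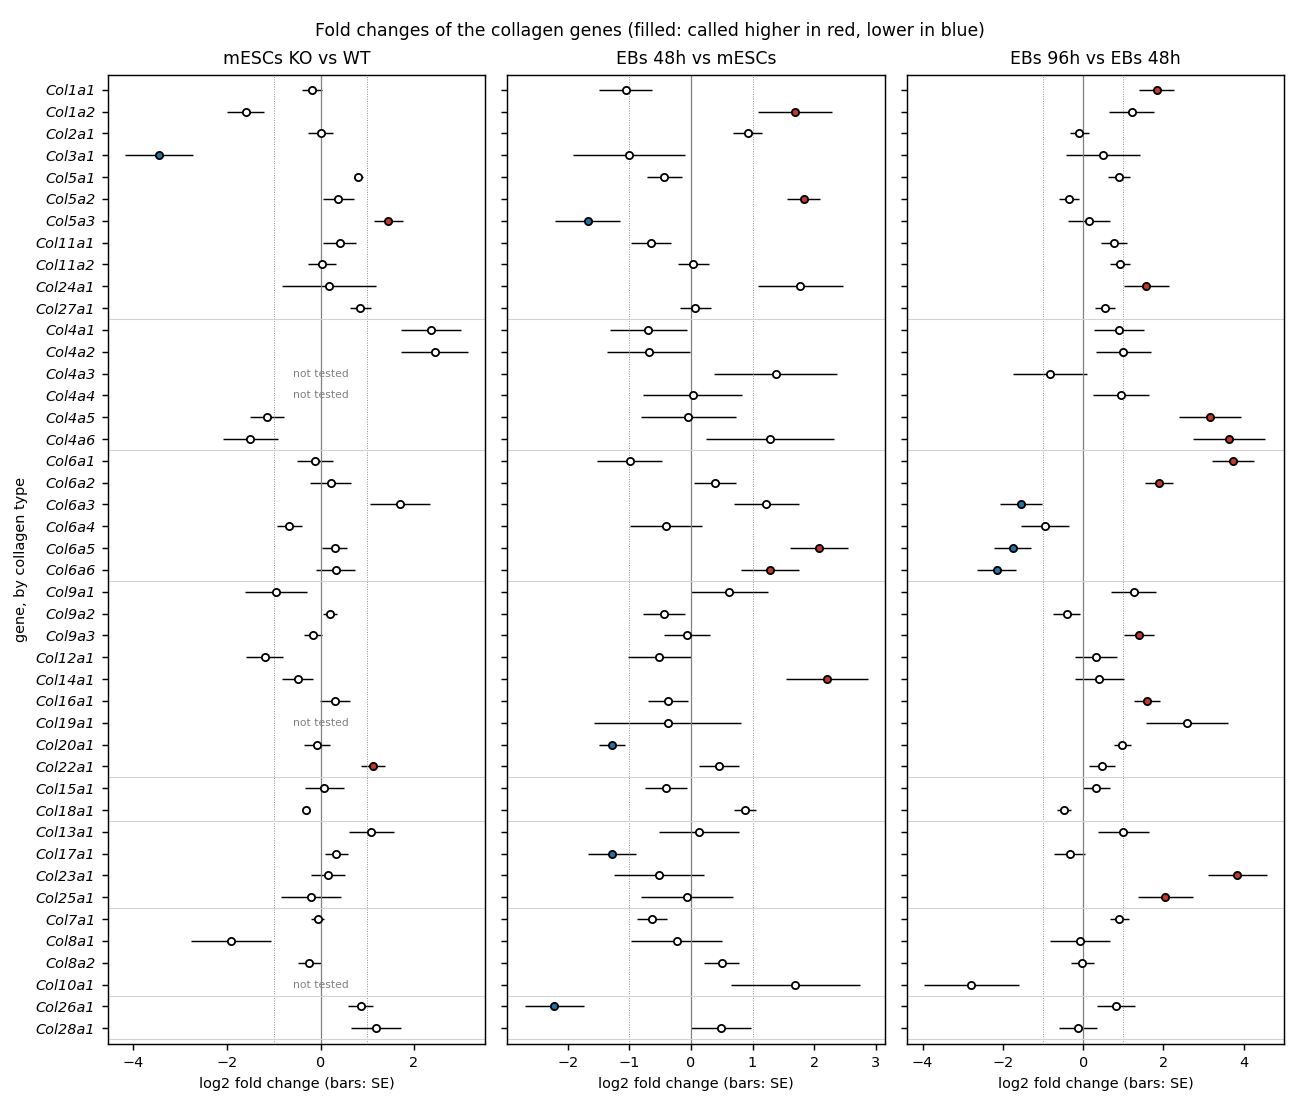
Log2 fold change (point) and its SE (bar) of each collagen gene in the comparisons of IκBα-KO with IκBα-WT mESCs, EBs at 48 h with mESCs, and EBs at 96 h with EBs at 48 h, with genes called higher in red and lower in blue and dotted lines at a log2 fold change of 1 and -1. The scales of the panels differ. Few points are filled in mESCs, filled points lie on both sides at 48 h, and 10 of 13 lie to the right at 96 h.

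Set side by side, few genes were called in more than 1 comparison. Col5a3 was called higher in IκBα-KO mESCs and lower in EBs at 48 h, but both comparisons use the IκBα-KO mESC libraries, and against IκBα-WT mESCs alone it was not called at 48 h. Col6a5 and Col6a6 were higher at 48 h and lower again at 96 h. The comparisons of EBs at 48 h and at 96 h share the 48 h libraries, so opposite signs in them are not independent either. Of the 44 genes, 22 were called in none of the 3 comparisons, among them the abundant Col18a1, Col4a1, Col4a2, Col9a2, Col5a1 and Col2a1.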

How the data were processed

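RNA was sequenced as paired-end reads. Per the labels and the study's methods, the authors trimmed reads with Trim Galore 0.6.6, aligned them to GRCm38 (mm10) with STAR 2.7.8 and counted unique reads over exons with featureCounts (Subread 2.0.1). The strand setting is not given in the sources used here. The deposited values were raw counts of 55487 genes. Gene lengths were taken from the merged exons of a GENCODE annotation of GRCm38.

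Genes whose counts summed to 10 or more in the fitted libraries were tested with edgeR 4.0.16 (R 4.3.3), using TMM scaling, robust quasi-likelihood tests and Benjamini-Hochberg adjustment over all genes tested (21843 for IκBα-KO against IκBα-WT mESCs, 6 libraries, and 25318 for the times, from 1 fit of 18 libraries). A call required an adjusted p below 0.05 together with a log2 fold change larger than 1 in size. RPKM used the TMM-scaled library sizes. The test in mESCs compares clones, so its p-values measure the spread between clones. In the tests of time, the spread within a group also holds the difference between genotypes. Libraries that share a code at 48 h and 96 h were treated there as independent, except in the blocked fit. The tests were checked on simulated counts. DESeq2 1.42.0 was an alternative test, and the other alternatives were scaling, filters, chromosome offsets, replicate blocks, 1 mESC genotype alone and leaving out each library.

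EB libraries with the same code at 48 h and 96 h deviated together from their time means (correlation 0.382 to 0.728 over genes, 6 codes, 5 of them best matched to their own code), so the code was used as a block in an alternative fit. The code not best matched to itself was E14 (correlation 0.475). The smallest chi-square per degree of freedom between any pair of libraries was 5.47, so no pair agreed within sampling noise. The 44 genes, the gene lists and the tests were chosen with earlier results of these data known. The rule for named genes took all fibrillar and type IV genes, the 5 highest of the other collagen genes by mean RPKM, all other collagen genes called, Nfkbia, and up to 4 called genes per pathway or marker list by size of change. Lama1 in mESCs, Col6a4, 8 further collagen genes given for completeness and the uncalled or sample-level markers (Gata4, Cubn, Ttr, Afp, T, Mesp1 and the fibroblast markers) were named after their values were seen. Exons of 13 collagen genes share bases with another gene. Some results for the basement membrane partners are not reported here.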

Additional observations from a re-analysis of the deposited data

Results flagged for a closer look

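Single libraries far from the rest of their group were looked for with Dixon's test in the EB groups of 6, and 3 of 68 gene and time groups stood out, where chance flags about 1 in 20. All 3 involved code E14. At 96 h, Col14a1 measured 2.02 RPKM in E14 and 0.107 to 0.217 RPKM in the other 5 libraries. At 96 h, Col9a3 measured 4.29 RPKM in E14 and 0.674 to 1.33 RPKM in the others, and its call against 48 h was lost without E14. At 48 h, Col6a6 measured 0.0746 RPKM in E14, below the 0.178 to 0.198 RPKM of the others.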

How the results depend on the processing

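Values of single collagen genes were followed across settings only where the main edgeR fit gave an unadjusted p under 0.05. Genes with weaker differences, which could reverse more easily, were left out of this count. Outside the leave-one-out fits, 0 of the values followed reversed and 329 kept their direction and their side of the threshold. Another 21 lost the threshold and 12 gained it. In IκBα-KO against IκBα-WT mESCs, all genes called higher numbered 374 by DESeq2 and 676 without a fold threshold, and those called lower 370 without it. Collagen genes called higher there numbered 4 by DESeq2, 0 with chromosome offsets, 1 without the low-count filter and 1 with the replicate number as a block, and those called lower 0 with edgeR's own expression filter, and 2 without a fold threshold or without the low-count filter. The replicate numbers of mESC clones did not pair them (correlations -0.158, 0.00031 and -0.0226), and the block called 161 of all genes higher and 100 lower. At 48 h against mESCs, all genes called higher numbered 672 against IκBα-WT mESCs alone and 3764 without a fold threshold, and those called lower 3289 without it. Collagen genes called higher numbered 3 against either mESC genotype alone and 3 without the low-count filter, and those called lower 2 against IκBα-WT alone. At 96 h against 48 h, all genes called higher numbered 3529 without a fold threshold, and those called lower 3490 without it, 719 with the EB libraries fitted alone (a setting chosen after seeing the data) and 792 with edgeR's own expression filter. The fit of EB libraries alone called 9 collagen genes higher and 3 lower at 96 h, and with the clone code as a block it called 11 and 4, with 1879 of all genes higher and 1656 lower.

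Leaving out 1 library at a time gave 0 to 491 of all genes higher, 0 to 381 lower, and 0 to 4 collagen genes in each direction in mESCs. The ranges at 48 h were 916 to 1262, 1103 to 1485, 3 to 6 and 3 to 5, and at 96 h 1353 to 2160, 755 to 1994, 7 to 13 and 2 to 4. Where a fit leaves 2 clones in a group, they are assumed to vary like the other libraries. EB genotype could not be compared, and most collagen genes lie below 1 RPKM, where counts limit the precision.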

Other observations

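At 96 h the EB libraries lay apart in several collagen genes, and the labels give no genotype to their codes. Col18a1 measured 105 RPKM in D4, 45.8 in E14, 102 in E2, 105 in E3, 62.6 in H7 and 52.6 in H9. Col6a6 measured 0.0631 RPKM in D4, 0.0114 in E14, 0.0423 in E2, 0.0916 in E3, 0.00692 in H7 and 0.0098 in H9, and Col14a1 measured 0.111 RPKM in D4, 2.02 in E14, 0.107 in E2, 0.12 in E3, 0.217 in H7 and 0.192 in H9. The summed level of the 8 primitive streak and mesoderm markers was 8.26 RPKM in D4, 328 in E14, 8.06 in E2, 7.11 in E3, 226 in H7 and 374 in H9. These sums fall into a low and a high cluster of 3 codes each, and no comparison between the clusters was made.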
